A study of Mus musculus with 2 samples.

Results

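The chemokines and their receptors were examined in ovaries of mice without the progesterone receptor (PR) and of wild-type mice, shortly before ovulation. Members were all genes whose single annotated symbol began with a chemokine or chemokine receptor stem followed by a digit, which gave 87 probe sets and 55 of the 18193 genes on the array. The 55 genes were 33 ligands and 22 receptors, and where several probe sets read a gene, the one with the highest mean log2 value over both arrays was used. Of the 55, 19 reached the array median of probe sets other than controls on at least 1 array and are called measured, 14 of them on both arrays. The other 36 lay under the median on both arrays. Over the whole array, 11316 of the 18193 genes were measured and 6877 lay under the median on both arrays. Among the measured members, Cxcr4, Ccl6 and Ccl9 were at least 2-fold lower in the PR knockout ovary and Ccrl2 was at least 2-fold higher.

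One RNA sample came from PR knockout ovaries and 1 from wild-type ovaries, both of C57BL/6 mice aged 24 to 28 days, and each was hybridized to 1 array. All mice were primed with PMSG (pregnant mare serum gonadotropin, 5 IU), which makes follicles grow, and 48 h later with hCG (human chorionic gonadotropin, 5 IU), which acts like the luteinizing hormone surge. Ovaries were taken 11 h after hCG. The labels describe whole ovaries and do not give the number of mice behind a sample, the disrupted part of the receptor gene, or the cells in which it was disrupted. With 1 array per genotype there is no replicate error, no test was possible, and genotype, animal and hybridization cannot be told apart. In RNA of whole ovaries, fewer cells of a type and less RNA per cell also cannot be told apart.

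Chemokines are small secreted proteins that bind receptors on target cells and guide their migration, and they are sorted into CC, CXC, CX3C and XC families by the spacing of their first cysteines. Signalling chemokine receptors act through inhibitory G proteins. Atypical receptors bind chemokines without that signalling and take them up or hold them at the cell surface. In the ovary, leukocytes enter the follicle wall and the stroma around the time of ovulation, and CXCL12 with its receptor CXCR4 is known from granulosa and stromal cells as well as from leukocytes.

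The arrays carried signals of ovarian tissue: the granulosa cell gene Inha gave 8073 in the PR knockout and 8399 in the wild type, and the collagen gene Col3a1 gave 7498 and 7550 in the same order. Pgr itself, the disrupted gene, was read by 3 probe sets at 42.8, 21.1 and 3.64 in the PR knockout and 36.5, 1.03 and 2.97 in the wild type, so it gave no check of the genotype labels. The array medians that served as the floor were 37.95 in the PR knockout and 36.2 in the wild type. A signal under the floor was set to it, and a fold against such a signal is a lower bound. The exception is a wild-type signal between the array medians, where flooring of the PR knockout signal can turn the sign. Of 11316 measured genes on the whole array, 1.15% were at least 2-fold higher and 1.72% at least 2-fold lower in the PR knockout, and the median log2 difference (PR knockout minus wild type, as for all differences here) was 0.06. The probe sets of 1 gene differed from each other with an SD of 0.33 log2 units where their geometric mean signal was below 75, and 0.29, 0.25 and 0.19 from 75, 150 and 300 upwards. This SD leaves out any spread between animals.

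Of the 19 measured members, 1 was at least 2-fold higher and 3 were at least 2-fold lower, and 6 were above and 13 below equality. Of the 14 members with both signals at or above the floor, 9 lay within 1.5-fold. Of all 10633 genes with both signals at or above the floor, 9499 lay within 1.5-fold. The folds of the 5 members under the floor on 1 array (Ccl2, Ccl12, Ccr1, Ackr2 and Ccl27a) are lower bounds. Their direction was largely set by the array on which they passed. At a 1.5-fold threshold 1 was higher, beside 6.54% of all measured genes, and 4 were lower, beside 4.75%. The median log2 difference of the 19 was -0.31, beside 0.06 for all measured genes, of which 42.2% lay below equality. The 12 measured ligands had a median of -0.32, with 9 lower, and the 7 measured receptors one of -0.05, with 4 lower. The median of the 19 was the floored difference of Ccl2, and that of the receptors the floored difference of Ccr1. Unfloored, these 2 genes gave -1.38 and -0.81 in the same order. Over the 14 members that reached the floor on both arrays, the median was -0.36, with 1 at least 2-fold higher, beside 0.978% of all genes that did so, and 3 at least 2-fold lower, beside 1.57%.

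**Figure D1:**
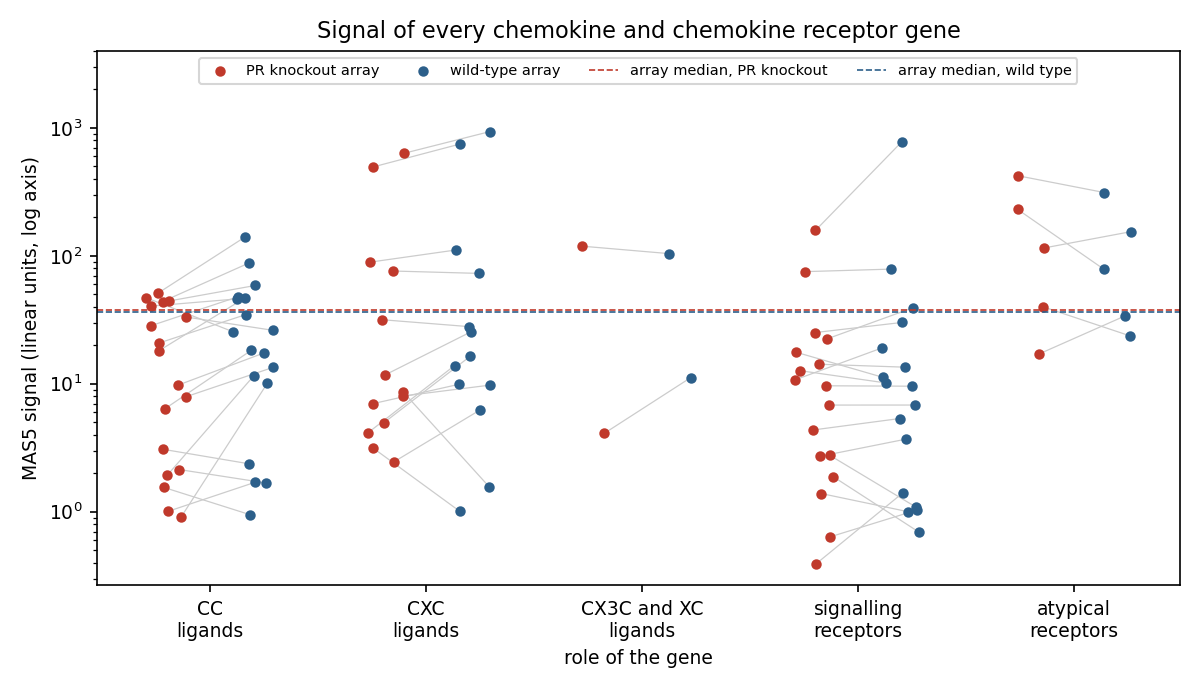
MAS5 signal (log axis) of all 55 genes by role, with PR knockout points left of wild-type points, grey lines joining the same gene, and dashed lines at the array medians of 37.95 (PR knockout) and 36.2 (wild type). Most genes lie under the medians on both arrays, and 36 of the 55 stay under both.

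The proximal promoters of the 4 members that were at least 2-fold apart are shown, since these genes carry the differences described next. Each line gives the 250 bases before the transcription start in RefSeq (GRCm38.p6), written 5′ to 3′ on the gene's own strand, and for Ccrl2 the most upstream of 3 annotated starts was taken. Capitals mark matches, on either strand, to 6 short motifs, listed after the sequences.
Cxcr4 (chr1:128592300-128592549, minus strand): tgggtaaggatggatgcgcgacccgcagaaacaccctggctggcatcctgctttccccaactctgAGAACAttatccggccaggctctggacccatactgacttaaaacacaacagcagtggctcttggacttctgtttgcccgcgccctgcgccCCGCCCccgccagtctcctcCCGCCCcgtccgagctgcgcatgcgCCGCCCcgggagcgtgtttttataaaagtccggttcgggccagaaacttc
Ccrl2 (chr9:111057519-111057768, minus strand): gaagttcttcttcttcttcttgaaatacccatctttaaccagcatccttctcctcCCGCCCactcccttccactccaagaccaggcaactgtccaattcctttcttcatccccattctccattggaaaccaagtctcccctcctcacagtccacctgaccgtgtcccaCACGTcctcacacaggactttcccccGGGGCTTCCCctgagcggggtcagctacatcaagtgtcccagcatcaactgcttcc
Ccl6 (chr11:83593088-83593337, minus strand): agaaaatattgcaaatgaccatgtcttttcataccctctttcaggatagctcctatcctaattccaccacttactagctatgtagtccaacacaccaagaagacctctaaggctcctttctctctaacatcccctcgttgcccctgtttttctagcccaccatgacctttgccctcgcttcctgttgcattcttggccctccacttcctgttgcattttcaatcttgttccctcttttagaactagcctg
Ccl9 (chr11:83578637-83578886, minus strand): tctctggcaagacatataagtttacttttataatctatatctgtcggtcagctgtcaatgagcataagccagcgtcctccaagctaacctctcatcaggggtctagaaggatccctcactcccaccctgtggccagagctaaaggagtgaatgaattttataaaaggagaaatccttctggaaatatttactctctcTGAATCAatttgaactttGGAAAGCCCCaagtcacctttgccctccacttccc

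The motifs searched were a full progesterone response element, its half-site (TGTTCT), the core of hypoxia response elements (ACGTG), an AP-1 site (TGANTCA), the κB motif bound by NF-κB, and a GC box (GGGCGG). The Cxcr4 window held the half-site once, from base -185 to -180 before the start, a motif found in 16.1% of 32841 promoter windows of the same length. It also held 3 GC boxes, and a GC box occurred in 32.7% of all windows. The Ccrl2 window held a κB motif from -56 to -47, a hypoxia core and a GC box, with the κB motif in 7.25% and the hypoxia core in 16.6% of all windows. The Ccl9 window held a κB motif from -35 to -26 and an AP-1 site from -53 to -47, the latter in 6.75% of windows. The Ccl6 window held 0 of the 6 motifs, and the full element, present in 0.387% of windows, was in 0 of the 4. A match describes letters only, and no binding was measured.

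Of the 3 measured signalling receptors, Cxcr4 was at least 2-fold lower, with the largest difference of the 19 measured members. Its signal was 157.7 in the PR knockout and 778 in the wild type, 4.93-fold lower in the PR knockout (log2 difference -2.30). The difference ranked 29 of 11316 from the lowest. At this signal the log2 differences of the probe sets of a gene had an SD of 0.19. That SD is pooled over genes with several probe sets and does not bound the error of a single one. The measured probe sets of Cxcl12, in the same signal range, gave -0.59 and 0.72. Both Cxcr4 signals were well above the floor, at 4.16 times the floor in the PR knockout and 21.5 times in the wild type. A single probe set reads this gene, so no second probe set could be compared. CXCR4 is the signalling receptor for CXCL12 and is known for retaining and attracting leukocytes, stem cells and migrating germ cells.

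The other measured signalling receptors were Cx3cr1 and Ccr1. Cx3cr1, the receptor for the membrane-bound chemokine CX3CL1 and a receptor of monocytes and tissue macrophages, gave 75.1 in the PR knockout and 78.6 in the wild type, 1.05-fold lower. Ccr1, which binds several inflammatory CC chemokines, gave 22.4 in the PR knockout, under the floor, and 39.3 in the wild type, barely above it. The remaining 14 of 17 signalling receptor genes were under the floor on both arrays: Ccr1l1, Ccr2, Ccr3, Ccr4, Ccr6, Ccr7, Ccr8, Ccr9, Ccr10, Cxcr2, Cxcr3, Cxcr5, Cxcr6 and Xcr1. Receptors that define neutrophils (Cxcr2), inflammatory monocytes (Ccr2) and naive T cells (Ccr7) were thus not detectable above the floor in either ovary.

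Of the 5 atypical receptors, 4 were measured, 3 of them with higher signal in the PR knockout and 1 by at least 2-fold. Among all measured genes 57.7% were higher and 1.15% higher by at least 2-fold. Ccrl2, which binds the chemoattractant chemerin without signalling and presents it to neighbouring cells, gave 230.0 in the PR knockout and 78.2 in the wild type. It was 2.94-fold higher (log2 difference 1.56), at rank 13 of 11316 from the highest. It too was read by a single probe set, of the kind whose probes can match several transcript forms. With the floor at the 70th percentile of each array the difference was 0.93, since the wild-type signal lay under that floor.

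Ackr3, which takes up CXCL12 and so competes with CXCR4 for it, gave 422 in the PR knockout and 312 in the wild type, 1.35-fold higher. Ackr4, which takes up the chemokines CCL19, CCL21 and CCL25, gave 115 in the PR knockout and 154 in the wild type, 1.34-fold lower, and its second probe set gave a log2 difference of -0.24 beside -0.42. Ackr2, a scavenger of inflammatory CC chemokines, gave 39.8 in the PR knockout, just above the floor, and 23.7 in the wild type, under it, at least 1.10-fold higher. Ackr1, which binds chemokines on red cells and venules, was under the floor on both arrays at 17.1 in the PR knockout and 33.97 in the wild type. At the edge of the floor, Ackr2 and Ccr1 (39.3 in the wild type) lay just inside, while Ackr1 and Ccl4 (34.7 in the wild type) lay just outside.

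**Figure D2:**
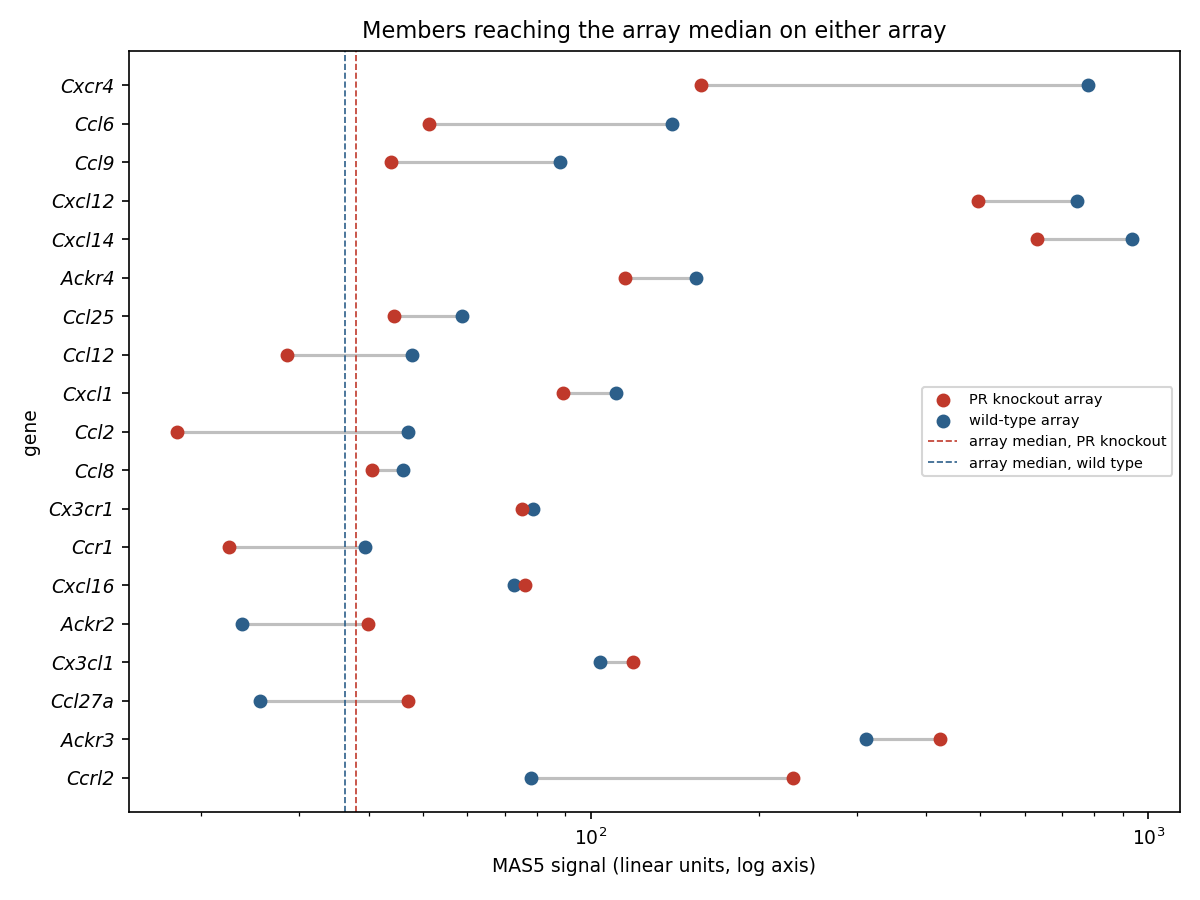
MAS5 signal (log axis) of the 19 measured members on the PR knockout and wild-type arrays, ordered by their difference, with dashed lines at the array medians. Cxcr4 shows the widest gap, 157.7 in the PR knockout and 778 in the wild type, and Ccrl2 the widest gap in the other direction.

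Of the CC ligands, 7 of 18 were measured, 6 of them lower in the PR knockout and 2 by at least 2-fold. Over all measured genes 42.2% were lower and 1.72% lower by at least 2-fold. Ccl2 and Ccl12, counted among the 6, passed through the wild-type array alone. Ccl6, a rodent chemokine that acts through CCR1 and attracts macrophages, gave 51.2 in the PR knockout and 139.7 in the wild type, 2.73-fold lower (log2 difference -1.45, rank 88 from the lowest). Its second probe set was 17.9 in the PR knockout, under the floor, and 36.9 in the wild type, barely above it. The log2 difference of 0.04 between floored values takes its sign from the floors, and the mean of -0.70 over the pair includes it. Ccl9, another rodent ligand of CCR1, gave 43.9 in the PR knockout and 87.8 in the wild type, 2.002-fold lower and so just past the threshold. Its second probe set gave 31.9 in the PR knockout, under the floor, and 46.7 in the wild type, a log2 difference of -0.30. The PR knockout signals of both genes lay close to the floor, at 1.35 times it for Ccl6 and 1.16 times for Ccl9.

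The other CC ligands were dim. Ccl25, the ligand of CCR9, gave 44.3 in the PR knockout and 58.6 in the wild type, 1.32-fold lower, with -0.26 on the log2 scale from its second probe set. Ccl8 gave 40.4 in the PR knockout and 46.0 in the wild type. Ccl2 and Ccl12, monocyte attractants that act through CCR2, were under the floor in the PR knockout at 18.1 and 28.5, against 46.9 and 47.8 in the wild type, which makes them at least 1.24-fold and 1.26-fold lower. Ccl27a, a ligand of CCR10, was the 1 CC ligand with higher signal, 46.9 in the PR knockout and 25.5, under the floor, in the wild type, at least 1.29-fold higher. Ccl1, Ccl3, Ccl4, Ccl5, Ccl7, Ccl11, Ccl17, Ccl20, Ccl22, Ccl24 and Ccl28 were under the floor on both arrays.

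Position in the genome was not part of the choice of members. By gene order in RefSeq, Ccl6 and Ccl9 are direct neighbours in a run of 5 member genes, Ccl5, Ccl9, Ccl6, Ccl3 and Ccl4, of which these 2 were measured and both were lower. Ccl2, Ccl12 and Ccl8 are the measured ones in another run of 6 with Ccl7, Ccl11 and Ccl1, and all 3 were below equality at signals close to the floor. Ccl2 and Ccl12 passed through the wild-type array alone, so their direction was largely set by the floor. The other 5 runs held at most 1 measured member each, with Cxcl1, Cx3cr1 and Ccr1 below and Cx3cl1 above equality. Ccr1 also passed through the wild-type array alone. Of all measured genes 42.2% lay below equality.

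Of the CXC ligands, 4 of 13 were measured and 0 were 2-fold apart. Cxcl14, a chemokine of epithelia and stroma, gave 631 in the PR knockout and 935 in the wild type, 1.48-fold lower, and its probe sets gave -0.57 and -0.58 on the log2 scale. Cxcl12, the ligand of CXCR4 and ACKR3, gave 495 in the PR knockout and 746 in the wild type by the probe set used, 1.51-fold lower. Its other measured probe set went the opposite way, 697 in the PR knockout and 423 in the wild type (log2 difference 0.72), both well above the floor. The mean over the pair was 0.06, so the arrays give no single direction for Cxcl12, in contrast to the 4.93-fold lower signal of its receptor gene Cxcr4.

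Cxcl1, which attracts neutrophils through CXCR2, gave 89.1 in the PR knockout and 111 in the wild type, 1.25-fold lower, with its 3 probe sets between -0.57 and 0.12 on the log2 scale. Cxcl16, the membrane-bound ligand of CXCR6, gave 76.0 in the PR knockout and 72.8 in the wild type, with a second probe set at -0.28 against 0.06. Cx3cl1, the ligand of CX3CR1, gave 119 in the PR knockout and 104 in the wild type, 1.14-fold higher, and its probe sets gave 0.19 and 0.28. Ligand and receptor thus differed by little for this pair. Cxcl2, Cxcl3, Cxcl5, Cxcl9, Cxcl10, Cxcl11, Cxcl13, Cxcl15, Cxcl17 and Xcl1 were under the floor on both arrays, among them the interferon-induced ligands Cxcl9, Cxcl10 and Cxcl11.

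**Figure D3:**
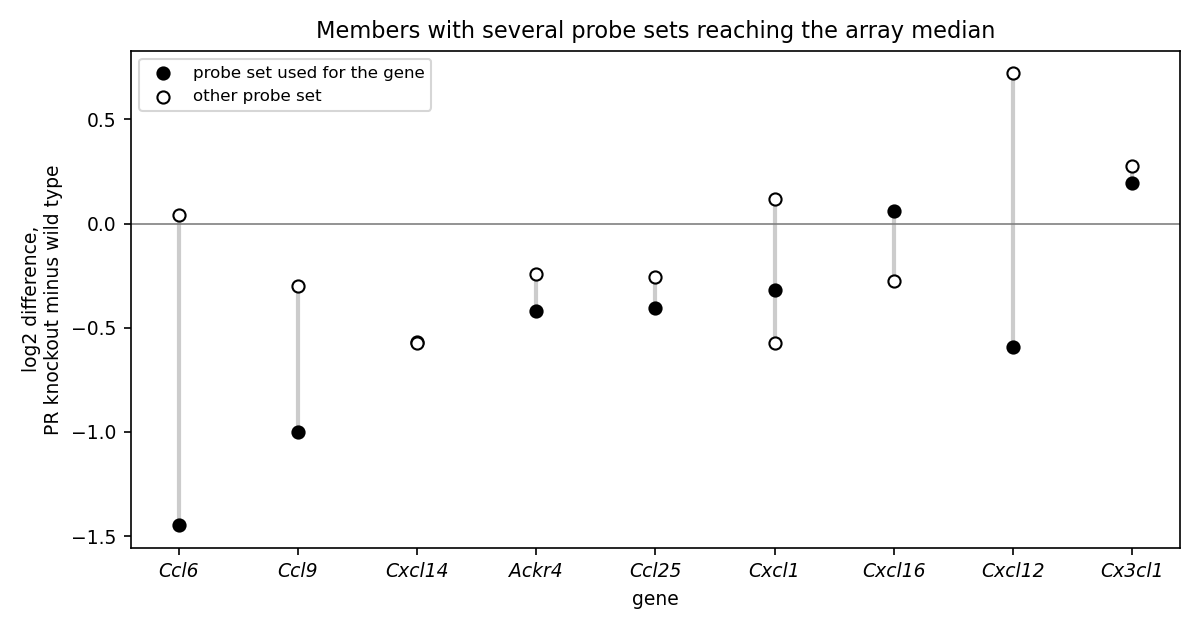
Log2 difference (PR knockout minus wild type) of each probe set that reached the array median, for the 9 members with more than 1 such probe set, with filled points for the probe set used. The probe sets of Cxcl14 coincide near -0.57, while those of Cxcl12 lie at -0.59 and 0.72. The second Ccl6 point, at 0.04, takes its sign from the floors, since its PR knockout signal was under the floor.

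Members under the floor are given by their range only. Over the 36 members under it on both arrays, unfloored signals ranged from 0.39 to 33.2 in the PR knockout and from 0.69 to 34.7 in the wild type. Their unfloored log2 differences ran from -3.48 to 2.48, and 13 of the 36 (36.1%) exceeded 2-fold in either direction, beside 41.8% of all 6877 genes under the floor on both arrays. Besides the members, 4 probe sets carried a symbol of the family together with others, and 3 of these reached the floor on at least 1 array. They were left out because their signal cannot be given to 1 gene.

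**Figure D4:**
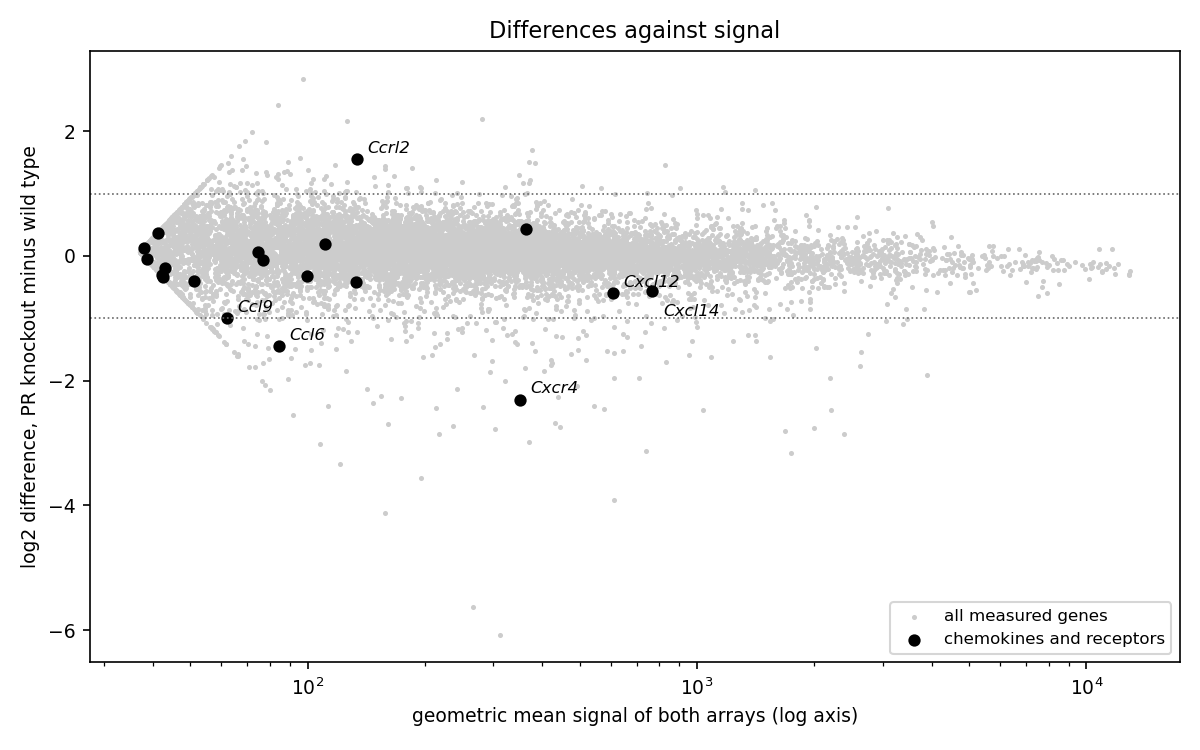
Log2 difference (PR knockout minus wild type) against the geometric mean signal (log axis) for the 11316 measured genes in grey and the 19 measured members in black, with dotted lines at 2-fold. Cxcr4 at -2.30 and Ccrl2 at 1.56 lie past the 2-fold lines, and most members lie between them.

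Leukocyte markers were set beside these values, since Cxcr4, Ccl6, Ccl9, Cx3cr1 and Ccrl2 are known from leukocytes. All 5 pan-leukocyte markers (Ptprc, Laptm5, Coro1a, Cd52 and Cd53) were measured, 4 of them lower and 0 by 2-fold, with summed signals of 366 in the PR knockout and 419 in the wild type. All 11 macrophage and monocyte markers were measured, 7 of them lower and 0 by 2-fold, with sums of 1704 and 1693 in the same order. Among them Fcgr1 and Cd163 passed through the wild-type array alone. Cd163, at 29.7 and 36.45 in the same order, had a log2 difference of 0.06 between floored values and was not counted as lower. The share lower among all measured genes was 42.2%. Of 9 neutrophil markers, Camp alone was measured, at 51.4 in the PR knockout and 160.4 in the wild type, 3.12-fold lower, while S100a8, S100a9, Mpo, Elane and the other 4 were under the floor on both arrays. Of 10 T and NK cell markers Gzmb alone was measured, at 64.7 and 114 in the same order, with Cd3d, Cd3e and Cd3g under the floor, and of 4 B cell markers Ighm alone, at 52.4 and 76.8. The part of leukocyte number in the chemokine values was not tested.

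All 10 endothelial markers were measured, and 7 were higher in the PR knockout, beside 57.7% of all measured genes. Their signals summed to 2343 in the PR knockout and 2024 in the wild type, and 0 were 2-fold apart. Of 4 lymphatic endothelial markers, 3 were measured, with Pdpn 2.84-fold higher and Lyve1 1.59-fold lower. Theca and stroma markers summed to 16685 in the PR knockout and 15284 in the wild type over 7 genes, with Tcf21 2.76-fold higher, and granulosa markers to 11196 and 10413 over 6. Of the 6 granulosa markers, 5 were higher and 1, Inha, with the highest signal, lower, with a median log2 difference of 0.44. Of 7 mast cell and eosinophil markers Kit alone was measured, 2.34-fold higher, a gene that oocytes and theca also express. Of 4 red cell and platelet genes Pf4 and Itga2b were measured, at 1.15-fold and 1.20-fold lower. The part of these cell types in the values of Cxcr4, Cxcl12, Ackr3 and Ccrl2 was likewise not tested.

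Of 19 genes of NF-κB and inflammatory induction, 14 were measured, 12 of them with lower signal in the PR knockout and 3 by at least 2-fold, with a median of -0.42. Among all measured genes 42.2% were lower and 1.72% lower by at least 2-fold. For Il6, Il1b and Tlr4 the PR knockout signal lay below the floor, so they passed through the wild-type array alone. The cytokine gene Il6 gave 14.1 in the PR knockout, under the floor, and 661 in the wild type, at least 17.4-fold lower. Nfkbiz, a nuclear cofactor of NF-κB, gave 186 in the PR knockout and 475 in the wild type, with 3 probe sets from -1.35 to -1.01, and Il1r1, the interleukin-1 receptor gene, gave 287 and 703 in the same order. Nfkbia was 1.33-fold, Cebpb 1.67-fold and Rela 1.34-fold lower. Tnf, Il1a and Ifng were under the floor on both arrays.

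Of 26 genes of receptor signalling and desensitisation, 20 were measured, with a median of -0.29. Of these 20, 13 were lower, beside 42.2% of all measured genes, and 0 were 2-fold apart. Rac2 and Rgs16 passed through the wild-type array alone, and Pik3cg through the PR knockout array alone. Rgs16 gave 18.4 in the PR knockout and 64.2 in the wild type. Stat3, a transcription factor of cytokine signalling, was 1.93-fold lower, Rgs2, which limits G protein signalling, 1.59-fold lower, and the GTPase gene Rac1 differed by 0.01 on the log2 scale. Rac2, a GTPase of blood cells, was under the floor in the PR knockout at 34.9 and reached 55.5 in the wild type.

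Of 12 leukocyte adhesion genes, 7 were measured and Icam1, the endothelial ligand of leukocyte integrins, was 2.37-fold lower, at 66.2 in the PR knockout and 157.2 in the wild type. Cd44 was 1.56-fold lower, Pecam1 1.24-fold and Icam2 1.12-fold higher, and the integrin genes Itgal, Itgam and Itgb2 were under the floor on both arrays. Of 13 other attractant and growth factor genes, 5 were measured and 0 were 2-fold apart, with Csf1r 1.37-fold higher and Csf1 1.60-fold and Alox5ap 1.06-fold lower. Of 12 chemokine-like genes outside the name rule, 8 were measured, 4 higher and 4 lower, and 0 by 2-fold. Rarres2, which encodes the CCRL2 ligand chemerin, gave 768 in the PR knockout and 597 in the wild type, 1.29-fold higher, and its signalling receptor gene Cmklr1 was under the floor on both arrays. Gpr1, another chemerin receptor gene, gave 55.6 in the PR knockout and 39.7 in the wild type, 1.40-fold higher. Mif was 1.12-fold and Cklf 1.09-fold lower.

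**Figure D5:**
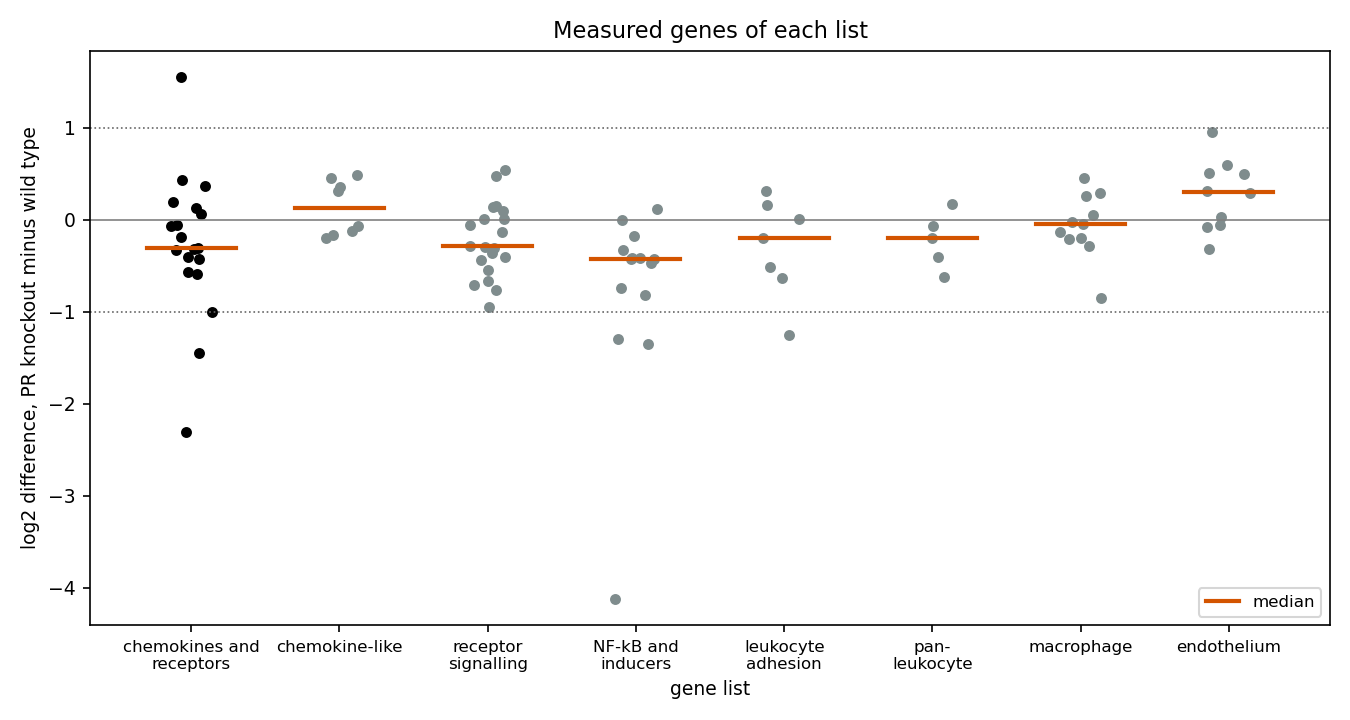
Log2 difference (PR knockout minus wild type) of each measured gene in 8 gene lists, with orange bars at the medians and dotted lines at 2-fold. Medians are -0.31 for chemokines and receptors, -0.42 for NF-κB and inducers, -0.20 for pan-leukocyte markers and 0.30 for endothelium.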

How the data were processed

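Whole-ovary RNA samples, 1 PR knockout and 1 wild type, were read on Affymetrix Mouse Genome arrays from 100 ng of total RNA each, with 3′-primed labelling per the labels' protocols. The deposited values are linear signal intensities, 1 per probe set and array, computed by the authors with MAS5 in Affymetrix Expression Console version 1, per the submitters' processing notes. The mean after trimming 2% at each end was 150.001 on both arrays. MAS5 subtracts mismatch signal, which makes low signals noisy. The sources used here name no genome build.

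Intensities were used as deposited. Of 45037 probe sets other than 64 controls, 34945 carried 1 symbol, 932 several and 9160 none, by the platform annotation. Of several probe sets of a gene, the one with the highest mean log2 value was used. The floor was each array's median. All 55 members matched the RefSeq table (GRCm38.p6) by gene ID, which served for gene order and promoters. The number of arrays limits precision and no p-value is given. Every measured member was named, and from the 5 lists of pathway genes those at least 2-fold apart and the 3 with the highest signal. Other pathway genes, and the genes named from the 11 marker lists, were chosen after their values were seen. The members, lists and naming rule were chosen with earlier results of these data known. The alternatives were 3 rescalings, 2 other floors, an offset of 50, the mean over probe sets, leaving out probe sets that can match several transcripts, a 1.5-fold threshold and, chosen after seeing the data, members at the floor on both arrays. Python 3.11.15, pandas 2.3.3 and statsmodels 0.14.6 were used, and the calculation was tested on simulated data.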

Additional observations from a re-analysis of the deposited data

How the results depend on the processing

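No paired analysis was possible because each genotype has 1 array and the result comes from no test. The 3 rescalings and the members at the floor on both arrays left the counts at 1 member at least 2-fold higher and 3 at least 2-fold lower. Of all measured genes, 0.857% were higher and 1.94% lower with median centring, and 0.822% and 1.89% with quantile normalization. With the loess trend removed the shares were 0.698% and 2.13%, and over genes at the floor on both arrays 0.978% and 1.57%. With the floor at the 70th percentile of each array, 7 members were measured, 0 were at least 2-fold higher and 1, Cxcr4, at least 2-fold lower, beside 0.429% and 1.57% of all genes. With no floor, 5 were higher and 13 lower over all 55 members, while 7.95% and 10.5% of all genes passed. With the offset of 50, or the mean over probe sets, 1 was lower, beside 1.13% and 1.48% of all genes, and 1 higher, beside 0.256% and 1.02%. With _x_at, _s_at and _a_at probe sets left out 0 were higher, beside 1.13% of all genes, and 3 lower, beside 1.74%, and Ccrl2 has no other probe set. At 1.5-fold 1 was higher and 4 lower, beside 6.54% and 4.75% of all measured genes. The 4 include Cxcl12, whose measured probe sets went opposite ways. The median ran from -0.42 with the loess trend removed to -0.19 with the mean over probe sets. Cxcr4 stayed at least 2-fold lower under all 9 alternatives that gave it a value (-2.36 to -2.00 on the log2 scale), and Ccrl2 at least 2-fold higher under 7 of 8 (0.93 to 1.56). Ccl6 (-1.59 to -0.13) and Ccl9 (-1.14 to -0.55) were 2-fold apart under 6 of 9 and 6 of 8. Of the 19 members 17 kept their sign throughout, Cxcl12 and Cxcl16 being the others, and the cause of these changes was not tested.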
